A study of Mus musculus with 12 samples.

Results

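H3K27me3 sites were examined at 7 paired-like homeobox genes, Pitx1, Pitx3, Alx1, Alx4, Prrx1, Prrx2 and Shox2, in immortalized mouse embryo fibroblasts (iMEF). The genes were chosen by name, most of them as genes of limb and face mesenchyme, and a site belonged to a gene if any of its bases lay in the gene body or within 20 kb on either side. By that rule 37 of the 101389 sites in the list fell to these genes. Phox2a, a relative that acts in neurons, was handled in the same way and took 3 sites.

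In all groups an exon of the endogenous Ash2l had been excised by a tamoxifen-activated Cre, and the cells lived on a lentiviral human ASH2L with an N-terminal FKBP12F36V tag, which the compound dTAG directs to degradation. ASH2L belongs to the core of the COMPASS/KMT2 methyltransferases, whose substrate is lysine 4 of histone H3. The cells were clones raised by limiting dilution. The study names a single clone, NG3, for its H3K27me3 ChIP-seq, while the sample labels name none. There were 8 H3K27me3 ChIP-seq libraries, 2 each without dTAG and after 16 h, 24 h or 48 h of it, and 4 input libraries, 2 untreated and 2 treated for 48 h. The purpose of the series was to follow the mark after rapid loss of ASH2L. The authors joined the sites of all samples into 1 list, which gives a chromosome, a start and an end and no value for any library. Treated and untreated cells therefore could not be compared at these genes from this list (a separate list in which the study gives changed sites was not used here), no replicate error exists for any value below, and the depth reached in each library is unknown here, although the study planned a minimum number of reads per library. A site is present in the list if the joined calls of all libraries included it, and the group it came from is not given.

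H3K27me3 is placed by the Polycomb repressive complexes, which settle on CpG islands (CGIs) of developmental genes that a cell type does not use and spread from there into broad domains. Paired-like homeodomain proteins bind short TAAT-containing DNA elements and set regional identity in the embryo. Pitx1 directs hindlimb identity, Pitx3 acts in the lens and in midbrain dopaminergic neurons, Alx1 and Alx4 pattern the frontonasal region, Prrx1 and Prrx2 act together in limb and craniofacial mesenchyme, and Shox2 acts in the proximal limb, the palate and the sinoatrial node. Phox2a acts in the formation of autonomic neurons. Pitx3 is thus the one member known mainly outside limb and face mesenchyme.

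The stretches just upstream of the RefSeq transcription start sites (TSSs) show the range of CpG content on which the sites lay or did not lay. RefSeq (GRCm38.p6) gave a promoter window of 300 bases for 5 of these 8 genes, Pitx3, Prrx1, Prrx2, Shox2 and Phox2a. Pitx1, Alx1 and Alx4 are named only. The bases upstream of the start and outside annotated exons are printed 5′ to 3′ on the strand of the gene with CpG dinucleotides in capitals, for Pitx3 (chr19:46148327-46148575, minus strand), Shox2 (chr3:66981772-66982021, minus strand), Phox2a (chr7:101818063-101818312, plus strand) and Prrx1 (chr1:163313711-163313900, minus strand).
Pitx3: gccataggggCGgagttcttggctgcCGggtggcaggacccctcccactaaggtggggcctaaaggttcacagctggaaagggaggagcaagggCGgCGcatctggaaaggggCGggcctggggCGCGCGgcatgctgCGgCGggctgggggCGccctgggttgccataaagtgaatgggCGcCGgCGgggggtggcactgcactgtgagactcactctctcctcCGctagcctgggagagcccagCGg
Shox2: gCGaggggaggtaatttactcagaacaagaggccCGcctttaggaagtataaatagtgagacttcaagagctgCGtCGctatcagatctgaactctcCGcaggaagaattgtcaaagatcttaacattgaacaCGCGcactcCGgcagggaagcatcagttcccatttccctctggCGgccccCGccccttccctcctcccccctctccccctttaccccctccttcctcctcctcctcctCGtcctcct
Phox2a: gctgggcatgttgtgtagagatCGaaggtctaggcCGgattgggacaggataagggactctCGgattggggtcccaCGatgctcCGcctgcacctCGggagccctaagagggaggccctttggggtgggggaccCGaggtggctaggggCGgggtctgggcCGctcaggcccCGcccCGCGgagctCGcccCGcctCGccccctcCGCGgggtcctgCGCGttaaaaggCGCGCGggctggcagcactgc
Prrx1: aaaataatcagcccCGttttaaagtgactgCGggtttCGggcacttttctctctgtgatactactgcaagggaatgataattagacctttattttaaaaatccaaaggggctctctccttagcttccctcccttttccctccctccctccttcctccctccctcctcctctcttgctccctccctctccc

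The first 3 of these stretches lay wholly inside an H3K27me3 site and the Prrx1 stretch lay in none. Over the whole window of 300 bases, Phox2a had 30 CpGs, Prrx2 28, Pitx3 20, Shox2 11 and Prrx1 6, against a median of 7 over the 32851 promoters of the table. Prrx2 had nearly as many CpGs as Phox2a, and 14.2% of promoters had at least as many, but no base of its window lay in a site. Shox2, with 41.4% of promoters at least as rich, was covered in full. The palindromic element TAATNNNATTA, with spacing of 3 bases between its TAAT arms, and the element TAATCC, the type preferred by Pitx proteins, were searched on both strands. Neither was present in any of the 5 windows, while 0.487% and 7.06% of all promoters held them. The shorter element can lie inside the longer one.

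Sites were found at 5 of the 7 members, Pitx1, Pitx3, Alx1, Alx4 and Shox2, and at Phox2a. Of all 21755 protein-coding genes on chromosomes 1 to 19 and X, 61.5% had a site under the same rule, so the count of 5 of 7 is near the background. A site lay within 1 kb of an annotated TSS in 5 of the 7 members and in Phox2a, against 26.9% of protein-coding genes. Among genes with a CGI within 1 kb of a TSS it did so in 5 of 6 members, against 26.6%, and among genes with any site in 5 of 5, against 43.7%. The outermost 5′ end lay inside a site of at least 5000 bp in the same 5 of 7 members and in Phox2a, against 9.33% of all genes and 15.2% of those with any site. The extended gene body was at least 50% covered in 3 of 7 members and not in Phox2a, against 6.47% of all genes. Genes are not replicates, and the members were picked by name with earlier results of these data known, so these shares are given side by side without a test.

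**Figure D1:**
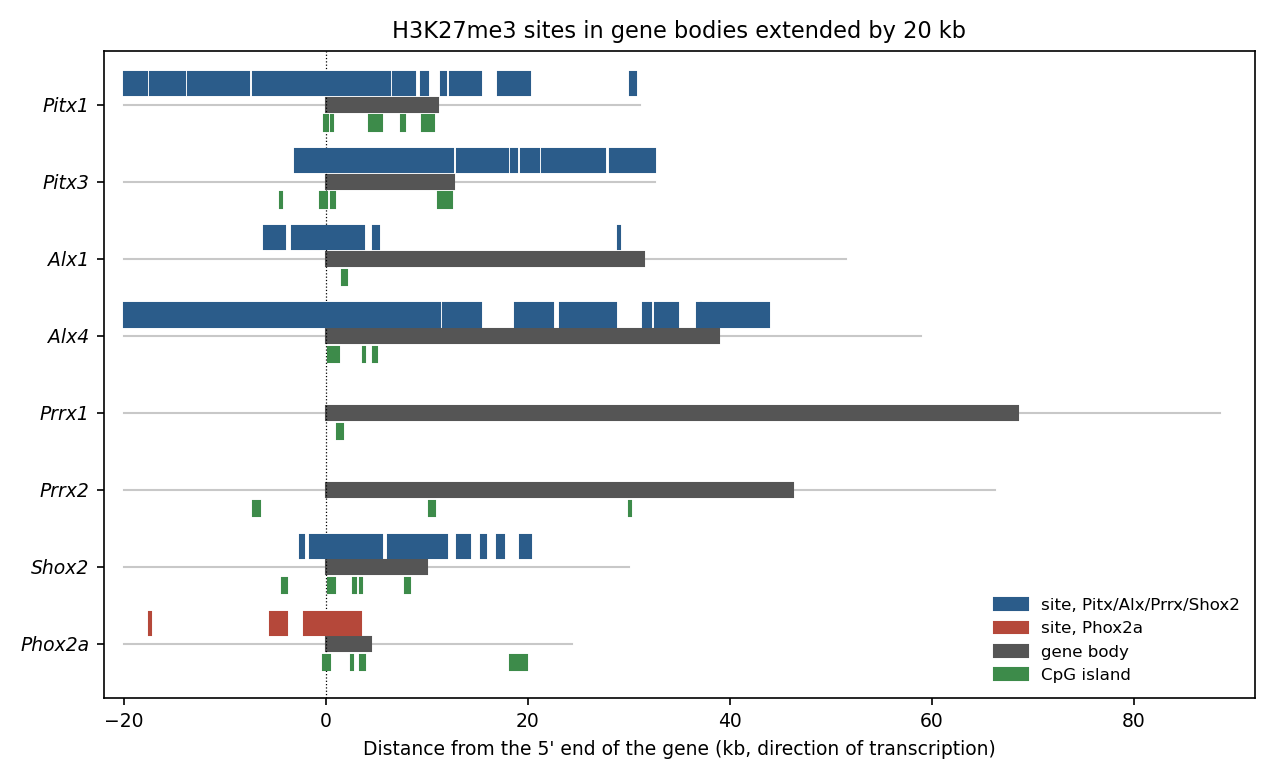
Each row is 1 gene, drawn to scale as distance from its 5′ end in kb, with sites (blue for the 7 members, red for Phox2a) above the gene body (grey) and CGIs (green) below. Sites cover the 5′ ends of 6 of the 8 genes, while Prrx1 and Prrx2 have CGIs and no site.

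Alx4 and Pitx1 had nearly equal covered shares, and which member came first depended on how windows and sites were defined, with Alx4 highest in 4 of 9 alternative definitions. The gene body of Alx4 (chr2:93642384-93681339, plus strand) with both flanks was 69.0% covered by 9 sites, and 2.92% of protein-coding genes were covered at least as far. The site over its 5′ end was 38509 bp wide (chr2:93615133-93653641), reaching from 27251 bp upstream to 11257 bp into the gene, and only 0.108% of all sites were that wide. The flank upstream was covered completely, the gene body to 75.8% and the flank downstream to 24.8%. With gaps under 1000 bp closed, the site over the 5′ end belonged to a run of 75197 bp made of 7 sites, which began 59803 bp upstream and ended 15393 bp into the gene. The run held no other protein-coding gene. Ext2, a glycosyltransferase gene of heparan sulfate synthesis on the other strand, overlapped the 3′ part of Alx4 and 7 of its sites, but its own 5′ end was 29379 bp from the nearest site.

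Pitx1 (chr13:55825051-55836192, minus strand) was covered to nearly the same extent, 68.9%, by 11 sites, the most of any member. The largest, 13570 bp (chr13:55829831-55843400), spanned from 7208 bp upstream of the 5′ end to 6361 bp inside. Coverage was 94.0% upstream, 82.3% in the body and 36.2% downstream. Introns were covered to 89.3% and exons to 59.9%, and of the 5 CGIs the one at the 3′ end was covered to 45.6% while the others were covered in full. The site over the 5′ end belonged to a run of 39444 bp made of 11 sites when gaps under 1000 bp were closed, which ended 10077 bp into the gene of 11142 bp, and to a run of 77618 bp when gaps under 3000 bp were closed. One further site of 570 bp lay in Catsper3, a sperm calcium channel gene downstream, whose body was 26.3% covered.

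Pitx3 (chr19:46135685-46148326, minus strand) showed the reverse arrangement. A single site of 15584 bp (chr19:46135764-46151347) held 99.4% of the gene body, the downstream flank was 91.1% covered and the upstream flank only 15.1%, which gave 64.2% over 6 sites. The upstream edge of that site was 3021 bp from the 5′ end of Pitx3, and the 5′ end of Gbf1, a gene for an Arf exchange factor of the Golgi that starts on the other strand, lay 1162 bp beyond it and outside any site. Downstream the sites ran over Elovl3, a fatty acid elongase gene, whose body was 91.6% covered and whose start lay in a site. The run of closely spaced sites was 39157 bp long and included Elovl3 and Pitx3.

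Shox2 (chr3:66971727-66981771, minus strand) had intermediate coverage, 33.7% in 7 sites, because the flanks were sparsely covered. The gene body itself was 94.3% covered, against 9.70% upstream and 27.4% downstream. A site of 7145 bp (chr3:66976215-66983359) lay over its 5′ end and another of 5830 bp over the rest of the gene. The first also covered the start of Rsrc1, a splicing factor gene on the other strand whose 5′ part overlaps Shox2, though only 0.616% of the Rsrc1 body was in a site.

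Alx1 (chr10:102998707-103030215, minus strand) had the least coverage among the members with sites. Its 4 sites covered 14.1% of the extended gene body, and 24.9% of all genes were covered at least as far. The site at the 5′ end was 7180 bp wide (chr10:103026426-103033605), from 3390 bp upstream to 3789 bp downstream. It held the 1 CGI of the window and 6 of the 8 annotated TSSs. A site of 586 bp that held coding sequence followed after 833 bp, and from there a gap of 23750 bp within the gene led to a single site of 211 bp, the smallest of the 37, and the downstream flank had none. Alx1 and Alx4 thus differed by 4.9 times in covered share (3.87 to 7.81 times over the alternative definitions) although both had a wide site over the start.

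**Figure D2:**
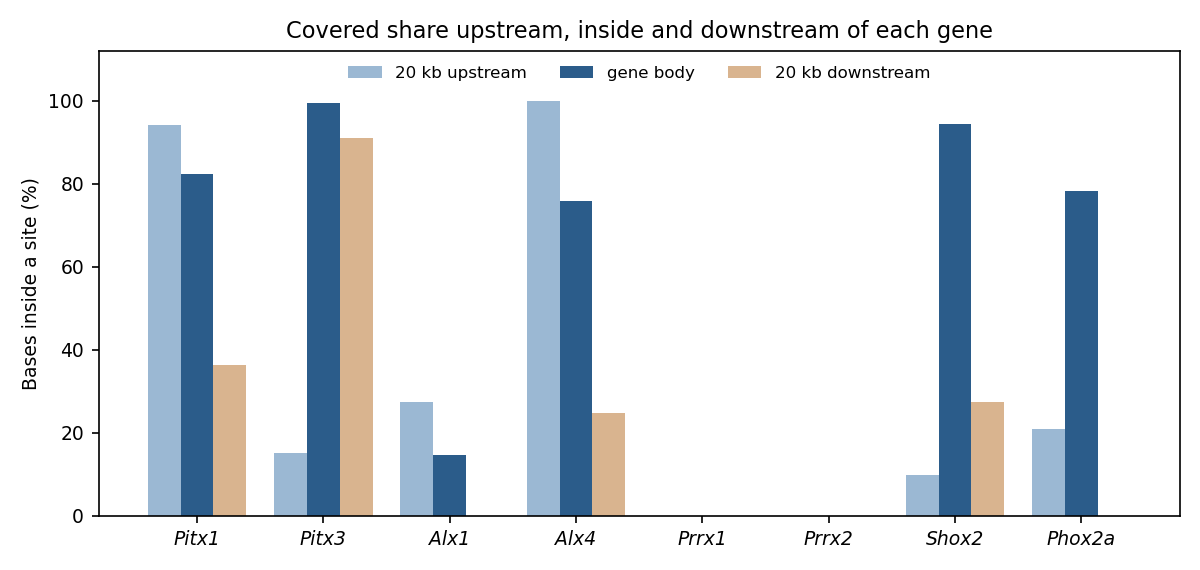
Bars give the percent of bases inside a site for the 20 kb upstream, the gene body and the 20 kb downstream of each gene, in 1 pooled list with no replicates. Pitx1, Alx4 and Alx1 are covered more upstream than downstream, Pitx3 and Shox2 less, and the bars of Prrx1 and Prrx2 are at 0.

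Prrx1 (chr1:163245119-163313710, minus strand) and Prrx2 (chr2:30834972-30881251, plus strand) had 0 sites in their extended gene bodies, and thus none at their 9 annotated TSSs. In the 5 other members 18 of 20 annotated TSSs lay inside a site, and in Phox2a 2 of 2. These 5 were grouped by having sites, and no such share of TSSs over all genes is given here. The nearest site was 240856 bp from the 5′ end of Prrx1 and 31544 bp from that of Prrx2. The absence of a site is common among genes. Of protein-coding genes with a window 0.8 to 1.25 times as long as that of Prrx1, 35.1% had no site, and the share for windows like that of Prrx2 was 34.9%. Of genes with a CGI within 1 kb of a TSS, such as Prrx2, 33.2% had none.

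The stretch without sites around Prrx1 was 928661 bp long (chr1:163072855-164001515) and wholly contained 7 protein-coding genes, Prrx1, Gorab, Mettl11b, Kifap3, Scyl3, BC055324 and Mettl18. Only 0.4% of the gaps between neighbouring sites were at least as long. Such gaps held 9.55% of protein-coding genes, counting only genes with no site in their extended gene body. The stretch around Prrx1 was bounded by a site of 342 bp in Mroh9 and by a site of 1240 bp outside any protein-coding gene. Prrx2 lay in a stretch of 131524 bp (chr2:30803429-30934952) with Ntmt1, an N-terminal methyltransferase gene, Asb6 and the prostaglandin E synthase gene Ptges. There 3.50% of the gaps were at least as long, and 33.5% of genes, counted in the same way, lay in such a gap. Genes within 20 kb of a site, such as Ntmt1 and Ptges, are thus missing from these shares.

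Whether reads could be placed there was not tested, as no read or input coverage was examined. Neither window contained an assembly gap. The repeat-masked share was 23.8% for Prrx1 and 26.9% for Prrx2, inside the range of the other 5 members, 13.6% to 35.7%. A patch sequence of the assembly repeated 1222 of the 108592 bases of the Prrx1 window and none of any other member. The annotated 5′ end of Prrx2 lay 10395 bp upstream of its RefSeq start, and both lay in the same site-free stretch.

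The windows of the 5 members with sites held 18 CGIs, of which 16 overlapped a site, against 32.6% of the CGIs in the windows of all protein-coding genes with a site. The other two, 4354 to 4571 bp upstream of Pitx3 and 3826 to 4366 bp upstream of Shox2, lay beyond the upstream edge of the sites over those 5′ ends. The first lies in the body of Gbf1 and the second in that of Rsrc1. The window of Prrx1 held 1 CGI, 620 bp long and 1089 to 1708 bp downstream of its 5′ end. That of Prrx2 held 3, of 238 to 720 bp, the longest in Asb6. None of these 4 could overlap a site, since the windows had none. The window of Phox2a held 4 CGIs and 3 of them overlapped a site, 1 of these to only 9.03% of its bases. The uncovered island lay over the 5′ end of a neighbouring gene, Inppl1. Most sites were not themselves on islands, since 29 of the 37 sites of the members overlapped no CGI. This share was lower than the 96.6% of all sites that overlapped none.

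**Figure D3:**
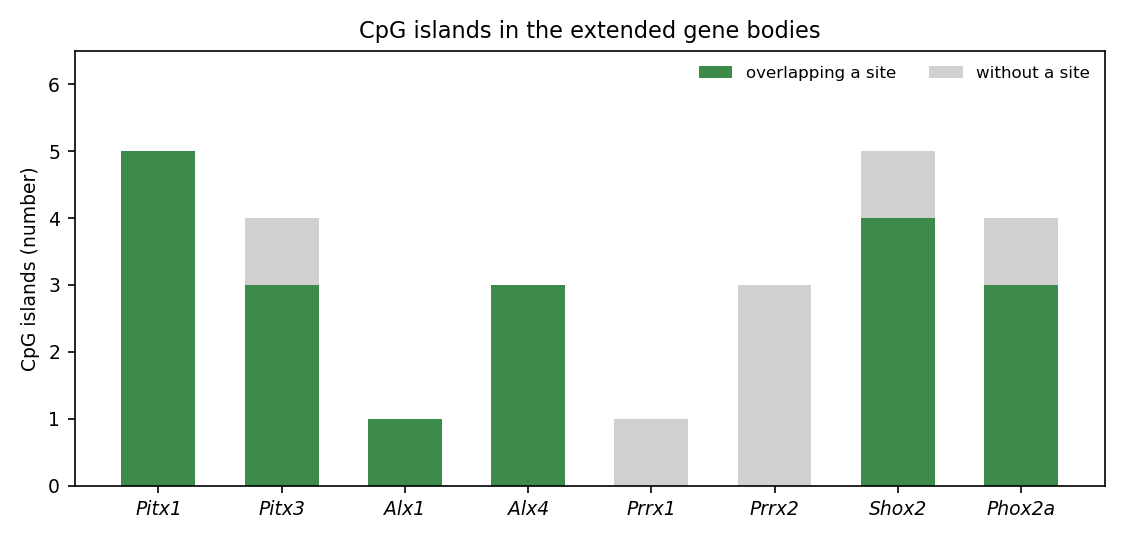
Stacked bars give the number of CGIs in each extended gene body, in green those that overlap a site and in grey those that do not. All CGIs of Pitx1, Alx1 and Alx4 overlap a site, as do 3 of 4 at Pitx3 and 4 of 5 at Shox2, and none of the 4 at Prrx1 and Prrx2 does.

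The 37 sites were wider than most. Their median width was 2349 bp, with a range of 211 to 38509 bp, compared with a median of 676 bp over all sites. Widths of at least 5000 bp occurred in 12 of the 37 and in 7.08% of all sites, and widths of at least 10000 bp in 3 of the 37 and in 2.35%. These 3 lay over the 5′ ends of Alx4, Pitx3 and Pitx1. A further 7 were under 500 bp. By position, 6 sites lay upstream, 5 over the 5′ end, 13 began inside the gene body, of which 2 ran past the 3′ end, and 13 lay downstream, and 11 contained coding sequence of the member. Between neighbouring sites of the same window, 21 of 32 gaps were under 1000 bp and the median gap was 578 bp. Of all gaps 48.5% were under 1000 bp. That share is not like for like, since it includes gaps that reach beyond or span a window, which the 32 leave out.

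Around the 5′ end the covered share of the 5 members was 100% from 1500 bp upstream to 3500 bp downstream, in bins of 500 bp. It averaged 49.2% over the 20 kb upstream and 70.0% over the 20 kb downstream of the 5′ end. The sites of Alx1 near its 5′ end stopped 5208 bp downstream, while those of the other four went on. Over all protein-coding genes, which include those without a site, the same profile peaked at 18.5% just downstream of the 5′ end and was 12.3% and 10.0% at the 2 outer edges.

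**Figure D4:**
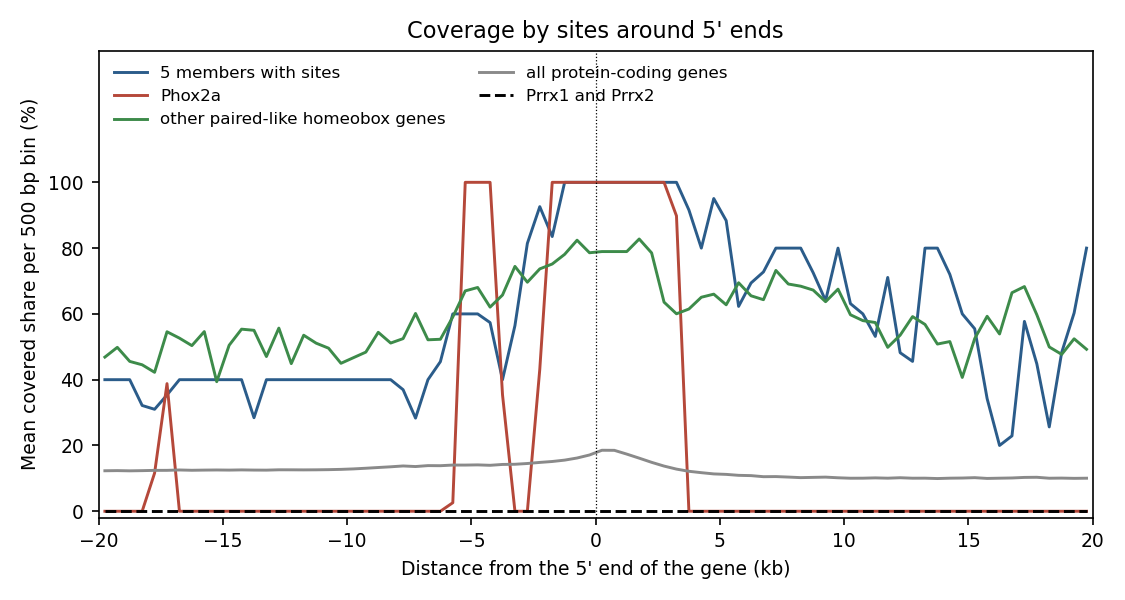
Lines give the mean covered share in bins of 500 bp against distance from the 5′ end in kb for 5 gene sets, drawn from the pooled list. The 5 members with sites and Phox2a reach 100% at the 5′ end, the other paired-like genes peak at 82.8%, all protein-coding genes at 18.5%, and Prrx1 and Prrx2 stay at 0.

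In covered share, the neural gene Phox2a (chr7:101818313-101822726, plus strand) lay within the range of the 5 members with sites, though it had fewer sites than any of them. It was 17.1% covered, between Alx1 and Shox2, by a 5′ site of 5665 bp, narrower than the 5′ site of any of the 5 members with sites, and by 2 smaller sites upstream. The 5′ site reached from 2216 bp upstream to 3448 bp downstream of the start, and no other site lay within 1000 bp of it. The gene body was 78.1% covered and the upstream flank 20.8%. The downstream flank, which holds most of the inositol phosphatase gene Inppl1, was not covered at all. With 1 such gene, a member (Pitx3) that also acts in neurons, and no replicate values, no difference from the 7 members was tested.

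Among 19 other paired-like homeobox genes, all had a site, in 18 of them within 1 kb of a TSS, the exception being Isx, a gene of the intestinal epithelium. Over all protein-coding genes these shares were 61.5% and 26.9%. Their median covered share was 60.0%, against 33.7% for the 7 members and 1.88% for all genes, all with flanks of 20 kb. The median of the members was between 15.3% and 75.8% with other flanks, which were not run for this list. At 20 kb, 10 of the 19 were at least 50% covered, against 6.47% of all protein-coding genes. Uncx, which patterns the somites, had the highest at 99.1%, followed by Dmbx1 of the developing midbrain at 96.2%, and the lowest were Hesx1 of the pituitary at 5.72% and Isx at 11.1%. Of the 27 paired-like genes considered, members and Phox2a included, only Prrx1 and Prrx2 had no site, against 38.5% of all protein-coding genes.

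In a list of 14 other genes that pattern the limb and face, 11 had a site, 7 had one within 1 kb of a TSS and the median covered share was 8.53%, beside 61.5%, 26.9% and 1.88% for all protein-coding genes. The highest were Msx1 with 81.2% and Hand2 with 79.0%, both regulators of limb bud and branchial arch mesenchyme. Gli3, the hedgehog pathway effector, Tbx15 and Twist1 had no site, like the Prrx genes. In a list of 10 autonomic neuron genes, sites lay within 1 kb of a TSS at all 10, and the median covered share was 38.3%. Isl1 with 71.2% and Insm1 with 53.3% were the highest, and Ret with 18.4% and Stmn2 with 1.93% the lowest.

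The file holds no expression values, so the labelled cell type could be set only against the sites. Of 10 fibroblast markers, 8 had no site, among them the collagen genes Col1a1 and Col1a2, as had 6 of 10 housekeeping genes and 38.5% of all protein-coding genes. Pdgfrb with 10.1% and Pdgfra with 7.90%, the one marker with a site within 1 kb of a TSS, were the highest. Whether the Prrx genes were transcribed in these cells was not tested.

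**Figure D5:**
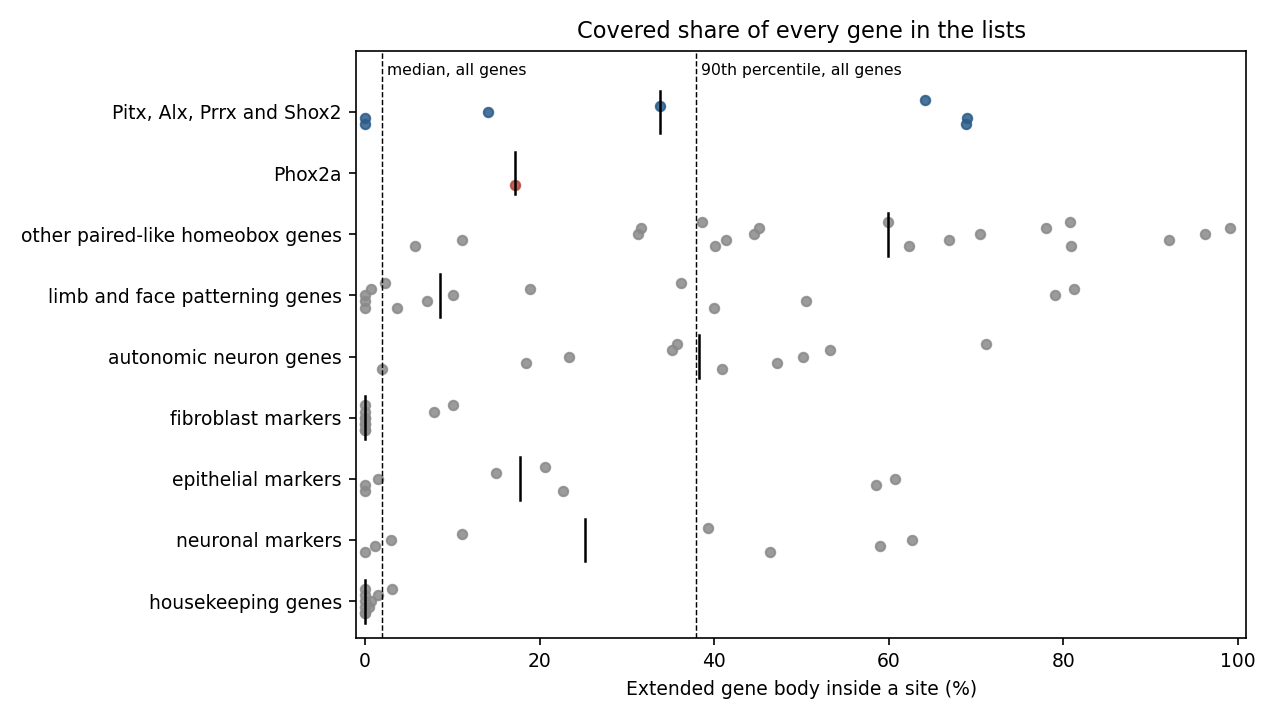
Each point is 1 gene, placed by the percent of its extended gene body inside a site, in 9 gene lists, with the median of each list as a black bar and the median (1.88%) and 90th percentile (37.9%) of all protein-coding genes as dashed lines. Alx4, Pitx1 and Pitx3 lie above the 90th percentile, Shox2 and Alx1 between the lines, and Prrx1 and Prrx2 at 0, where genes of 5 other lists also lie.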

How the data were processed

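The deposited list holds 3 columns (chromosome, start and end), so its values are positions and no counts or signal; 0 columns of per-sample values were left unused. Per the methods and the submitters' processing notes, the authors used Trim Galore for trimming, BWA for alignment to mm10 and SAMtools for filtering, merged replicates with Picard and called broad peaks with MACS2. Versions, cutoffs and the rule for joining sites over samples are not given in the sources used here. A broad caller sets the smallest width, here 200 bp, and the largest gap it bridges, so numbers of sites and widths depend on it. The planned count test of treated against untreated cells was not run, since there are no counts.

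Starts were read as counted from 0 and are printed counted from 1. Genes and TSSs were those of GENCODE M21 on GRCm38 (protein-coding genes of chromosomes 1 to 19 and X). CGIs were maximal-scoring segments (17 for a CpG, -1 for another or masked base) of at least 200 bp, with at least 50% GC and an observed/expected CpG ratio of at least 0.6. Positions were handled in Python 3.11.15 with numpy 2.4.6 and pandas 2.3.3, and patch sequences were aligned with minimap2 2.31-r1302 (alignments of at least 1000 bp and 95% identity). Scripts were tested on simulated data. The members and gene lists were chosen with earlier results of these data known. Genes named from a list are the 2 with the highest and the 2 with the lowest covered share, and all without a site where these are 5 or fewer. Of the neighbours, those that overlap a site of a member were named by rule; Gbf1, Inppl1 and the genes in the site-free stretches were named after their values were seen. Some genes of the lists are not reported here and were left out of the counts.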

Additional observations from a re-analysis of the deposited data

How the results depend on the processing

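The list could be varied only in how sites and windows were defined. Pitx1, Pitx3, Alx1, Alx4 and Shox2 had a site under all 9 alternatives and Prrx1 under none. Prrx2 gained a site only with a flank of 50 kb. That site covered 2.54% of its window and raised the count of genes with a site to 6. The median covered share of the 7 members, 33.7%, was 75.8% with no flank, 55.5% with 10 kb, 15.3% with 50 kb, 32.1% and 30.7% with sites of at least 500 bp and 1000 bp, 36.1% and 45.6% with sites under 1000 bp and 3000 bp apart merged, and 49.1% without bases of other protein-coding genes. The 37 sites became 18 with no flank, 68 with 50 kb, 24 with sites of at least 1000 bp, and 16 and 8 after the 2 mergers. A site within 1 kb of a TSS was found at 5 members in every alternative except one that required the centre of the site there, which gave 3 because the centres of the wide sites of Alx4 and Pitx3 lie farther from their TSSs. Over the alternatives Shox2 ranged from 15.3% to 94.3%, Pitx3 from 45.8% to 99.4%, Alx1 from 7.64% to 19.5%, Pitx1 from 55.1% to 82.3%, Alx4 from 59.7% to 90.8% and Phox2a from 7.66% to 78.1%. Alx4 was highest of the members in 4 of the 9 and below Pitx1 in 4, and Alx1 was the lowest of the 5 members with sites in all 9. The alternatives for Phox2a were added after the data were seen. No paired analysis was possible because the list carries no value for any library, and for the same reason no library could be left out. The depth reached in each library is unknown here, so a missing site at Prrx1 or Prrx2 says only that none was called, not that the mark was absent.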

Other observations

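Markers of other cell types were described in the same way. Of 8 epithelial markers, 6 had a site, which lay near a TSS in 5, with a median covered share of 17.8%. The splicing regulator Esrp1 had 60.8% and the transcription factor Grhl2 58.6%, while the keratin genes Krt8 and Krt18 had none. Of 8 neuronal markers, 7 had a site and the median was 25.2%, from 0% at Map2 and 1.19% at Dcx to 59.0% at Nefl and 62.7% at Rbfox3. Of 10 housekeeping genes, 4 had sites in the extended gene body and 0 within 1 kb of a TSS, and the highest covered shares were 3.06% at B2m and 1.45% at Tbp, with Actb and Gapdh at 0%. Over all protein-coding genes 61.5% had any in the extended gene body and 26.9% within 1 kb of a TSS. No test was made between these lists.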
